A study of Mus musculus with 12 samples.

Results

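Levels of gene transcripts in mouse tongue were compared between 2 numbered treatment groups, group 4 and group 3. Of 23235 gene rows in the deposited tables, 12918 entered the comparison because the authors marked them as tested and at least 1 of these groups reached 1 FPKM (fragments per kilobase of transcript, divided by sequencing depth, a level corrected for gene length). The animals were C57BL/6 mice aged 31 weeks. Their 12 tongue samples belonged to 4 treatments of 3 samples each: 4-NQO with ethanol (written 4-NQO/EtOH), 4-NQO/Untr., V.C. with ethanol (V.C./EtOH) and V.C./Untr., where the labels spell out neither V.C. nor Untr. 4-NQO (4-nitroquinoline 1-oxide) is a mutagen that forms DNA adducts and is given to mice to induce tongue tumours. The tables number the groups 1 to 4, and no label used here ties a number to a treatment, so the groups are called by number and the treatment that sets group 4 apart from group 3 is not known here. The tables give 1 level per gene and group and the authors' test for each pair. Values per sample were not used here, the depth per sample is unknown, and a difference carried by 1 of the 3 mice cannot be told from one shared by all 3. The labels do not describe how the 3 samples of a group were obtained, so the spread between these samples may be partly technical. How far the authors' p-values rest on that spread is not known here.

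The tongue is a striated muscle covered by a keratinising epithelium, with small salivary glands embedded at its back that secrete enzymes, mucins and antimicrobial proteins. Neutrophils make their granule proteins in the bone marrow, at the promyelocyte and myelocyte stages, and largely stop transcribing them before they enter the blood, whereas S100a8 and S100a9 stay abundant in circulating neutrophils. Red cell precursors likewise transcribe membrane proteins such as band 3 in the marrow or spleen. CXCL9 and CXCL10 are chemokines induced by interferon gamma that draw in T cells carrying the receptor CXCR3.

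Transcripts of muscle and epithelium were present in both groups, and the presence of other tissue was not tested. Myh4, the myosin heavy chain of the fastest muscle fibres, had 678 FPKM in group 4, against 512 FPKM in group 3, and Krt5, the keratin of basal epithelial cells, had 1100.3 FPKM in group 4, against 1220.2 FPKM in group 3. All 20 fast muscle genes were measured and none passed the test in either direction or had an unadjusted p under 0.05 in the authors' deposited table. The comparison had few calls: 38 genes (0.294%) passed with a q-value under 0.05 in the authors' deposited table, 22 of them higher in group 4 (0.17% of the genes compared) and 16 lower (0.124%). At an unadjusted p under 0.05 in the authors' deposited table there were 105 genes, or 0.813%, where 5% would pass if no gene differed and the p-values were exact. The median gene differed by -0.04 on the log2(FPKM + 1) scale, group 4 minus group 3, and 39% of genes had the higher value in group 4. The authors' statistic implied a median standard error (SE) of 0.59 for a log2 ratio, and the smallest log2 ratio called was 1.86. Among all genes compared, 104 (0.805%) lay more than 1 log2 unit higher in group 4 and 165 (1.28%) more than 1 unit lower, most of them without passing the test. Small RNA genes (miRNA, snoRNA and similar short transcripts, which poly-A libraries count poorly) made up 81 of the 136 genes that differed by more than 2 log2 units, and none of them passed.

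**Figure D1:**
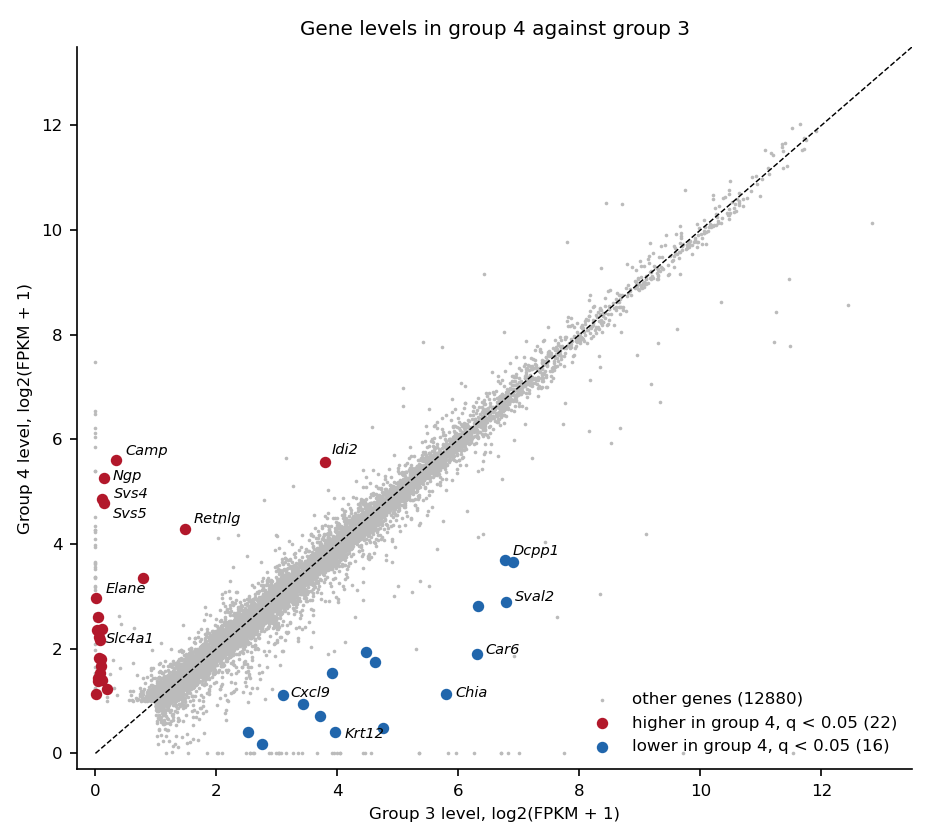
Levels of 12918 genes in group 4 (vertical axis) and group 3 (horizontal axis), both as log2(FPKM + 1), 1 point a gene and 1 value a group. Red points mark the 22 genes higher in group 4 and blue points the 16 genes lower in group 4 at a deposited q under 0.05. Most red points sit near 0 on the group 3 axis, and the dashed line marks equal levels.

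The calls higher in group 4 were mostly genes nearly silent elsewhere. In 20 of the 22, group 3 was under 1 FPKM, and in 18 groups 3, 2 and 1 all were. The median of these 22 genes was 3.92 FPKM in group 4, against 0.0655 FPKM in group 3. The calls lower in group 4 were genes of substantial level, with a median of 1.54 FPKM in group 4, against 22.4 FPKM in group 3. Group 4 had the lowest level of all 4 groups in 12 of those 16. The other 4 were Car6, Krt12, Il19 and Cxcl9, in which group 2, group 1 or both lay below group 4.

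**Figure D2:**
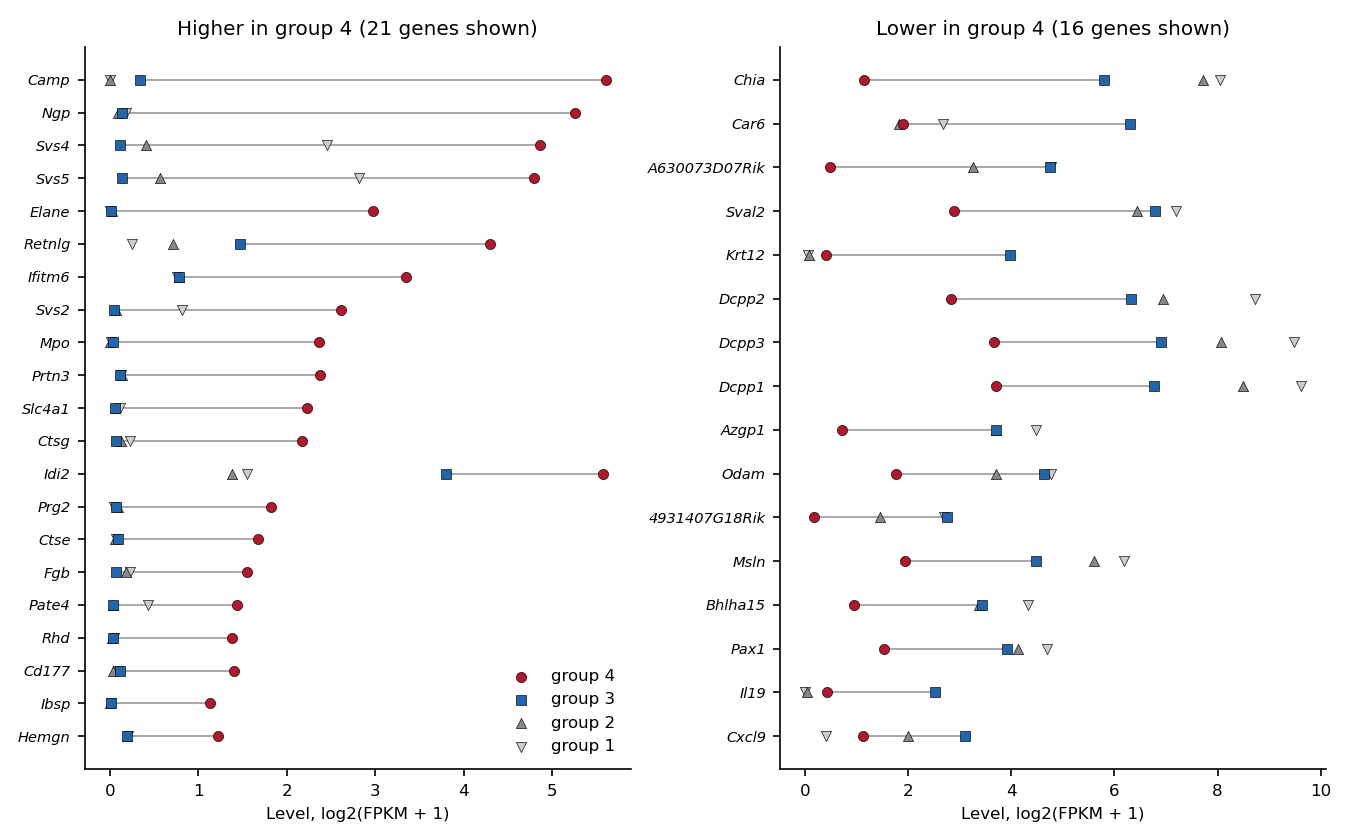
Levels of 37 of the 38 genes past the test, as log2(FPKM + 1) on the horizontal axis, with 1 symbol for each of groups 4, 3, 2 and 1 and a line joining group 4 to group 3. In the left panel group 4 stands to the right of the other groups in all 21 genes shown; in the right panel group 3 is the highest of the 4 groups in 5 of 16 genes and group 1 in 11.

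Granule genes of developing granulocytes rose in group 4. Camp, which encodes the antimicrobial peptide cathelicidin of secondary granules, had 47.6 FPKM in group 4, against 0.266 FPKM in group 3; it was listed at 0 in groups 2 and 1. Ngp, neutrophilic granule protein, had 37.2 FPKM in group 4, against 0.0973 FPKM in group 3. These genes lie 570.3 kb apart on chromosome 9, Camp at chr9:109749891-109751970 and Ngp at chr9:110322312-110325516 (mm9). Group 4 alone had these transcripts above 1 FPKM. The log2 ratio of group 4 to group 3 was 7.48 ± 1.02 (SE from the authors' statistic, 3 samples a group) for Camp and 8.58 ± 1.04 for Ngp. In the authors' deposited table the q-value was 1.51e-10 for Camp and 1.79e-13 for Ngp.

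The serine proteases and the peroxidase of primary granules moved the same way. Elane, neutrophil elastase, had 6.84 FPKM in group 4, against 0.0117 FPKM in group 3. Prtn3, proteinase 3, which adjoins Elane on chromosome 10, had 4.201 FPKM in group 4, against 0.0835 FPKM in group 3. Ctsg, cathepsin G, had 3.51 FPKM in group 4, against 0.0494 FPKM in group 3. Mpo, myeloperoxidase, had 4.15 FPKM in group 4, against 0.0223 FPKM in group 3. None of these 4 reached 0.2 FPKM in group 3, group 2 or group 1. Their q-values in the authors' deposited table were 0.00493 for Elane, 2.35e-04 for Prtn3, 5.14e-05 for Ctsg and 1.45e-08 for Mpo. The log2 ratio of Elane had the widest error of all calls, 9.19 ± 2.31. Retnlg, a resistin-like protein of granulocytes, had 18.6 FPKM in group 4, against 1.77 FPKM in group 3, with a deposited q of 0.0247 in the authors' deposited table.

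In the list of granulocyte precursor and granule genes, 7 of 18 measured members rose and none fell, beside 0.17% of all genes that rose. Of these 18 members, 9 met the minimum of 1 FPKM in group 4 only, so the minimum itself set their direction and no list median is read from them. The other 9 met it in both groups, with the higher value in group 4 in 7 of the 9 and a median difference of 0.45 log2 units, against -0.04 for all genes that met it in both groups. Members that did not pass included Chi3l3, a chitinase-like lectin of myeloid cells, with 16.4 FPKM in group 4, against 3.09 FPKM in group 3 and a deposited q of 0.0541 in the authors' deposited table, the nearest to the threshold of all genes not called. Chi3l4, a close copy of Chi3l3, had the lower value in group 4, and the division of reads between these copies is uncertain. Mmp8, neutrophil collagenase, had 1.88 FPKM in group 4, against 0.183 FPKM in group 3. Fcnb, ficolin B, had 1.26 FPKM in group 4, against 0.00746 FPKM in group 3. Ms4a3, a membrane protein of myeloid progenitors, had 1.78 FPKM in group 4 and was listed at 0 in group 3. The lowest member was Pglyrp1, a peptidoglycan recognition protein made by neutrophils and by epithelia, with 49.2 FPKM in group 4, against 148 FPKM in group 3. The summed level of all 21 genes of the list was 511 FPKM in group 4, against 381 FPKM in group 3. It was 380 FPKM in group 2 and 532 FPKM in group 1, so group 4 was not the highest on this sum. The count of risen members was 4 with a minimum of 5 FPKM. With 1 variance shared by the groups and p-values adjusted within the comparison it was 3, but that variance could not be had for Camp, Elane and Mpo, and of the 4 calls it could be had for Retnlg alone was lost.

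Genes listed for mature neutrophils gave a different picture. S100a8 and S100a9, subunits of calprotectin, were already abundant in group 3: S100a8 had 3184 FPKM in group 4, against 2602 FPKM in group 3, and S100a9 had 2974 FPKM in group 4, against 2148 FPKM in group 3. Neither passed the test (unadjusted p 0.703 and 0.583 in the authors' deposited table). S100a8 and S100a9 made up most of the summed level of the 29 list genes, 6303 FPKM in group 4, against 4904 FPKM in group 3. Which cells carried these transcripts was not tested. Of 20 measured members of the mature neutrophil list, 1 rose (0.17% of all genes rose), Cd177, a surface glycoprotein of neutrophils, with 1.63 FPKM in group 4, against 0.0798 FPKM in group 3. The list median was 0.15 log2 units, with 11 members above 0 and 9 below. Of the 20, 2 met the minimum of 1 FPKM in group 4 only and 2 in group 3 only, which set their direction. Over the 16 that met it in both groups, 9 lay above 0 and 7 below. Ncf1, a subunit of the NADPH oxidase, had 3.62 FPKM in group 4, against 1.93 FPKM in group 3. Clec4d, a C-type lectin of myeloid cells, had 0.935 FPKM in group 4, against 1.61 FPKM in group 3. Outside the lists, Ifitm6, an interferon-induced-transmembrane-family gene of myeloid cells, rose to 9.19 FPKM in group 4, against 0.720 FPKM in group 3, with a q of 0.00429 in the authors' deposited table. In bulk tissue, fewer cells of a type and less RNA per cell cannot be told apart.

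The promoters of Camp and Ngp are shown because these genes had the largest rises. They come from the RefSeq promoter table (GRCm38.p6), each running from 250 bases before to 50 bases after the start of the gene, on the gene's strand. Capitals mark the letters TTGCNNAA or their reverse complement TTNNGCAA, a core of the sites bound by C/EBP factors, which drive granulocyte genes. Camp lies at chr9:109849407-109849706 (minus strand) and Ngp at chr9:110419558-110419857 (plus strand).
Camp: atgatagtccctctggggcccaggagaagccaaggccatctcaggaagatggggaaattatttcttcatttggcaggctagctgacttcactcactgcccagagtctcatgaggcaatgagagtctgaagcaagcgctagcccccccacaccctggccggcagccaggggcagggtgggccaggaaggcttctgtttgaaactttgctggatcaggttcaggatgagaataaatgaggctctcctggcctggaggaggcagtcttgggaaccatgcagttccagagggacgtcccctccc
Ngp: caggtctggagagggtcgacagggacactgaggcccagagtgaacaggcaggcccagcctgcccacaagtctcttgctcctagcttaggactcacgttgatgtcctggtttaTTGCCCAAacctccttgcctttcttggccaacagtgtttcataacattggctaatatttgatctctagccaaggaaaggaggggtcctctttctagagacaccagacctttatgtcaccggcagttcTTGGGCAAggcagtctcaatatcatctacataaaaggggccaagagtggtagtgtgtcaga
Ngp had 2 matches and Camp none. Among the 7 called genes of the granulocyte precursor list, 2 promoters held the letters, those of Ngp and Retnlg, beside 10.8% of all promoters in the table. A match describes the letters only.

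Genes of red cell precursors also rose. Slc4a1, band 3, the anion exchanger of the red cell membrane, had 3.70 FPKM in group 4, against 0.0389 FPKM in group 3, a log2 ratio of 6.57 ± 0.95. Rhd, a Rh blood group protein, had 1.59 FPKM in group 4, against 0.0244 FPKM in group 3. Hemgn, hemogen, a nuclear protein of haematopoietic cells, had 1.33 FPKM in group 4, against 0.144 FPKM in group 3. In groups 2 and 1 these 3 genes stayed below 0.2 FPKM, as in group 3, and group 4 stood apart from the other groups. The q-values in the authors' deposited table were 2.48e-09 for Slc4a1, 0.00160 for Rhd and 0.0369 for Hemgn.

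In all, 4 of 22 measured erythroid genes rose (0.17% of all genes rose), and none fell. The count was 0 with a minimum of 5 FPKM, 8 with no minimum and 2 by Bonferroni within the comparison. Differences ran from -0.01 to 2.66 log2 units. Of the 22 members, 11 met the minimum of 1 FPKM in group 4 only, which set their direction; the other 11 met it in both groups, with the higher value in group 4 in 10 of the 11 and a median difference of 0.39. Haemoglobin transcripts, which are also carried by blood reticulocytes, were higher in value without passing. Hbb-b2, a beta globin, had 875 FPKM in group 4, against 221 FPKM in group 3 (p = 0.0455, q = 0.426 in the authors' deposited table). Hba-a2, an alpha globin whose reads are nearly shared with Hba-a1, had 232 FPKM in group 4, against 41.7 FPKM in group 3. The split of reads between such copies is uncertain. A row shared by Hba-a1 and Hba-a2 had 1464 FPKM in group 4, against 347 FPKM in group 3. Beta-s, also a beta globin, had 1454 FPKM in group 4, against 417 FPKM in group 3. Neither row passed, and both are named after their values were seen. Alas2, the first enzyme of haem synthesis in red cell precursors, had 17.1 FPKM in group 4, against 4.11 FPKM in group 3. Car1, an erythroid carbonic anhydrase, had 5.36 FPKM in group 4, against 0.00751 FPKM in group 3, with a log2 ratio of 9.48 ± 5.91, and did not pass (p = 0.108 in the authors' deposited table). Cldn13, a claudin of mouse erythroid cells, had 1.39 FPKM in group 4 and was listed at 0 in group 3.

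The limit of 1 FPKM left out further genes with a q under 0.05 in the authors' deposited table, 7 in all, each with the higher value in group 4. Of these, 4 were on the erythroid list: Trim10 with 0.895 FPKM in group 4, against 0.0427 FPKM in group 3, Ermap with 0.827 FPKM in group 4, against 0.0884 FPKM in group 3, Rhag, a Rh-associated glycoprotein, with 0.781 FPKM in group 4, against 0.0268 FPKM in group 3, and Spna1, alpha spectrin of red cells, with 0.245 FPKM in group 4, against 0.00642 FPKM in group 3. The other 3 were Itgb2l with 0.614 FPKM in group 4, against 0.0135 FPKM in group 3, Apol11b with 0.698 FPKM in group 4, against 0.0292 FPKM in group 3 and Dpcr1 with 0.659 FPKM in group 4, against 0.0215 FPKM in group 3. Trim10 lay closest below the limit, and Ibsp, with 1.20 FPKM in group 4, closest above it among the called genes.

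The promoters of Rhd and Hemgn are shown as erythroid calls with an entry in the RefSeq promoter table (GRCm38.p6). Capitals mark AGATAA or its reverse complement TTATCT, a form of the GATA site read by GATA1, the main erythroid transcription factor. Rhd lies at chr4:134864286-134864585 (plus strand) and Hemgn at chr4:46404134-46404433 (minus strand).
Rhd: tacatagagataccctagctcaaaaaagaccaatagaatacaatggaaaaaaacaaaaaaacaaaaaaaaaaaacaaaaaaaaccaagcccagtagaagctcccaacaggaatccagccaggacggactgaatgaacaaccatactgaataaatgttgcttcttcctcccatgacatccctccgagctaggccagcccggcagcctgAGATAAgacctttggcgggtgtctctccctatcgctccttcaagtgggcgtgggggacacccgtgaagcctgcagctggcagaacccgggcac
Hemgn: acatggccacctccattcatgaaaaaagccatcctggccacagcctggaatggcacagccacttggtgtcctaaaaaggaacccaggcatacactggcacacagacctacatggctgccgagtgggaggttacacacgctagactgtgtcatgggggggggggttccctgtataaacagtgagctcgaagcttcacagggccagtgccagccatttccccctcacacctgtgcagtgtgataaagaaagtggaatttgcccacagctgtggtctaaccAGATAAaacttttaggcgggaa
Each held 1 match, upstream of the start in Rhd and downstream of it in Hemgn, beside 11.2% of all promoters with at least 1. The letters were not particular to erythroid calls. They also occurred in 3 of the 7 called salivary genes, Dcpp1, Dcpp2 and Dcpp3, and in Svs2 and Svs4. Of the 7 called granulocyte genes, 0 had them.

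Other blood and bone markers were checked beside these results. Prg2, major basic protein of eosinophil granules, rose to 2.53 FPKM in group 4, against 0.0462 FPKM in group 3 (q = 0.00380 in the authors' deposited table). It was the only called gene among 7 measured genes of the mast cell and eosinophil list (0.17% of all genes rose). The mast cell proteases Cpa3 and Mcpt4 had no call. Cpa3 had 5.24 FPKM in group 4, against 5.42 FPKM in group 3. Mcpt4 had 12.4 FPKM in group 4, against 11.8 FPKM in group 3. Ibsp, bone sialoprotein, a matrix protein of osteoblasts, rose to 1.20 FPKM in group 4, against 0.00754 FPKM in group 3 (q = 0.00610 in the authors' deposited table). Among 7 measured bone genes Ibsp alone was called, beside 0.17% of all genes that rose. Bglap, osteocalcin, had 2.40 FPKM in group 4, against 1.22 FPKM in group 3, and Bglap2, a near-identical copy, had 5.50 FPKM in group 4, against 3.40 FPKM in group 3. The summed level of 12 bone genes was 50.4 FPKM in group 4, against 40.4 FPKM in group 3. Markers of B-cell development in marrow were largely unmeasured: 3 of 15 entered, none passed or had an unadjusted p under 0.05 in the authors' deposited table, and Vpreb1, the surrogate light chain of pre-B cells, had 0.164 FPKM in group 4, against 0.246 FPKM in group 3. Of 6 measured platelet genes none passed, and Pf4, platelet factor 4, had 17.6 FPKM in group 4, against 16.9 FPKM in group 3; 1, Thbs1, reached an unadjusted p under 0.05 in the authors' deposited table. With no FPKM minimum, 8 of the B-cell markers had an authors' test, 5 with the higher value in group 4 and 3 with the lower. Likewise 11 platelet genes had one, 9 with the higher value and 2 with the lower. Of all 15603 genes so tested, 6523 had the higher value and 9079 the lower. The part of bone, marrow or blood cells in the granulocyte and erythroid rises was not tested.

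Seminal vesicle secretory genes, which a tongue is not known for, were the remaining large group that rose. Svs4 had 28.0 FPKM in group 4, against 0.0796 FPKM in group 3, and 0.328 FPKM in group 2 and 4.46 FPKM in group 1. Svs5 had 26.7 FPKM in group 4, against 0.102 FPKM in group 3, and 0.475 FPKM in group 2 and 6.04 FPKM in group 1. Svs2, which encodes semenogelin-like clotting protein of the seminal fluid, had 5.11 FPKM in group 4, against 0.0345 FPKM in group 3. Group 1 thus lay between group 4 and the other groups in Svs4 and Svs5. These 3 genes lie within 98.5 kb of chromosome 2, where 3 of 4 measured genes rose. Pate4, also a seminal vesicle secretory gene, had 1.70 FPKM in group 4, against 0.0264 FPKM in group 3. The q-values in the authors' deposited table were 6.83e-08 for Svs4, 2.86e-07 for Svs5, 9.62e-06 for Svs2 and 0.0117 for Pate4.

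Of 19 exocrine pancreas and seminal vesicle genes, 6 were measured and 4 rose (0.17% of all genes rose). All 6 met the minimum of 1 FPKM in group 4 only, so their common direction was set by the minimum and is not read as a result of the list. Svs6 had 4.30 FPKM in group 4, against 0.561 FPKM in group 3. Spink3, a trypsin inhibitor of pancreas and male accessory glands, had 1.60 FPKM in group 4, against 0.123 FPKM in group 3. Neither passed. The other 13 genes of the list, the pancreatic enzymes among them, stayed under 1 FPKM in both groups or were not tested by the authors; Cela1, an elastase, had 0.562 FPKM in group 4, against 0.317 FPKM in group 3. The summed level of all 19 was 69.5 FPKM in group 4, against 2.36 FPKM in group 3.

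The remaining rises had no shared list. Idi2, an isopentenyl diphosphate isomerase of isoprenoid synthesis, had 46.7 FPKM in group 4, against 12.9 FPKM in group 3, and 1.59 FPKM in group 2 and 1.92 FPKM in group 1. It was 1 of the 2 risen genes, with Retnlg, that group 3 already expressed above 1 FPKM, and its log2 ratio of 1.86 ± 0.53 was the smallest of all calls, with a q of 0.0211 in the authors' deposited table. Fgb, the beta chain of fibrinogen, had 1.92 FPKM in group 4, against 0.0489 FPKM in group 3, and Ctse, the aspartic protease cathepsin E, had 2.18 FPKM in group 4, against 0.0621 FPKM in group 3. Both are named after their values were seen.

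**Figure D3:**
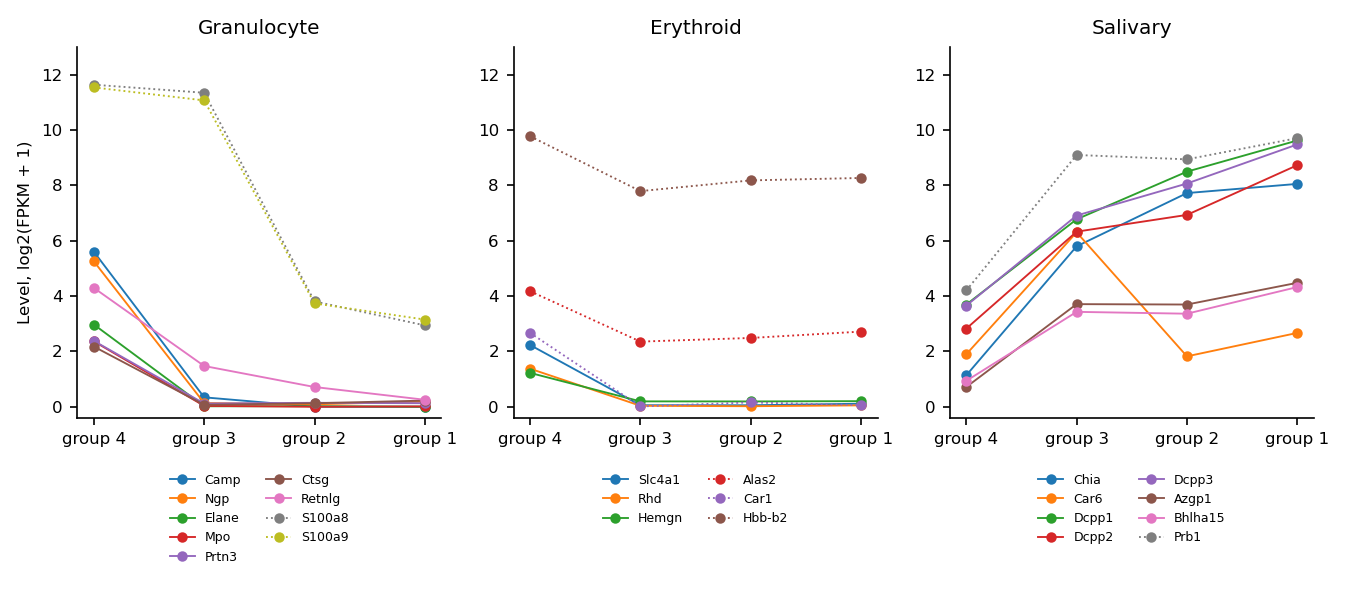
Levels, as log2(FPKM + 1), of named granulocyte, erythroid and salivary genes in groups 4, 3, 2 and 1, left to right, with 1 value a group; lines only join the points of a gene, solid where group 4 and group 3 differed at a deposited q under 0.05 and dotted where that test was not passed. Camp and the other granule genes have their highest level in group 4, S100a8 and S100a9 are high in groups 4 and 3, and the salivary genes other than Car6 are lowest in group 4.

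Secreted proteins of salivary glands fell in group 4. Chia, acidic mammalian chitinase, had 1.20 FPKM in group 4, against 54.6 FPKM in group 3, and 210.0 FPKM in group 2 and 265 FPKM in group 1. Car6, the carbonic anhydrase secreted into saliva, had 2.72 FPKM in group 4, against 78.0 FPKM in group 3. For Car6 it was group 3 that stood apart, with groups 2 and 1 at 2.53 and 5.36 FPKM. The log2 ratio was -5.51 ± 1.04 for Chia and -4.84 ± 1.00 for Car6, and the q-values in the authors' deposited table were 2.38e-05 and 1.62e-04.

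The demilune cell and parotid protein genes Dcpp1, Dcpp2 and Dcpp3 fell together. Dcpp1 had 11.9 FPKM in group 4, against 108 FPKM in group 3, and 359.9 FPKM in group 2 and 787 FPKM in group 1. Dcpp2 had 6.07 FPKM in group 4, against 79.3 FPKM in group 3. Dcpp3 had 11.6 FPKM in group 4, against 119 FPKM in group 3. All are neighbours within 38.6 kb of chromosome 17 and are similar copies, so the division of reads among them is uncertain and they are not independent observations. Azgp1, zinc-alpha-2-glycoprotein, had 0.639 FPKM in group 4, against 12.1 FPKM in group 3. In all 4 genes the order of levels was group 1 highest and group 4 lowest. The q-values in the authors' deposited table were 0.0196 for Dcpp1, 0.00721 for Dcpp2, 0.0124 for Dcpp3 and 0.00563 for Azgp1.

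In all, 6 of 22 measured salivary secreted genes fell (0.124% of all genes fell) and none rose. The count was 3 with p-values adjusted within the comparison by Benjamini-Hochberg and 2 by Bonferroni. Of the 22 members, 3 met the minimum of 1 FPKM in group 3 only; over the 19 that met it in both groups, 18 had the lower value in group 4 and the median difference was -2.41 log2 units. Prb1, a proline-rich protein of saliva, had 17.4 FPKM in group 4, against 547 FPKM in group 3 (p = 0.0456, q = 0.426 in the authors' deposited table). Amy1, salivary amylase, had 381 FPKM in group 4, against 5543 FPKM in group 3, with a log2 ratio of -3.86 ± 28.11 and a p of 0.891 in the authors' deposited table. Bpifa2, a parotid secretory protein, had 343 FPKM in group 4, against 2425 FPKM in group 3. Tff2, a trefoil peptide of mucous secretions, had 536 FPKM in group 4, against 2841 FPKM in group 3. Sbp, a spermine-binding protein gene, had 105 FPKM in group 4, against 642 FPKM in group 3. Lyz1, lysozyme, was the single member with the higher value in group 4, 26.2 FPKM in group 4, against 17.1 FPKM in group 3. Summed over the 28 genes of the list that were under the authors' read limit in every group, the level was 1158 FPKM in group 4 and 7116 FPKM in group 3, with 11802 FPKM in group 2 and 21097 FPKM in group 1.

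Bhlha15, which encodes MIST1, the transcription factor that sets up the secretory apparatus of serous acinar cells, fell to 0.913 FPKM in group 4, against 9.77 FPKM in group 3 (log2 ratio -3.42 ± 0.92, q = 0.0117 in the authors' deposited table). It was the only called gene among 15 measured genes of salivary gland cells (0.124% of all genes fell), whose median difference was -0.30. Aqp5, the water channel of acinar cells, had 20.7 FPKM in group 4, against 52.6 FPKM in group 3. Kcnn4, a potassium channel of acinar cells, had 6.70 FPKM in group 4, against 15.2 FPKM in group 3. Pigr, the receptor that carries IgA into saliva, had 16.2 FPKM in group 4, against 29.1 FPKM in group 3. Other members lay the other way: Klk1, tissue kallikrein, a protease of duct cells, had 20.4 FPKM in group 4, against 3.14 FPKM in group 3 (p = 0.00265, q = 0.0732 in the authors' deposited table), and Fxyd2, a subunit regulator of the sodium pump, had 10.7 FPKM in group 4, against 3.81 FPKM in group 3. None of these passed.

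The promoters of Car6 and Azgp1 are shown from the RefSeq table (GRCm38.p6) as salivary genes that fell beside Bhlha15. Capitals mark CATATG, a palindromic E-box bound by MIST1. Car6 lies at chr4:150201086-150201385 (minus strand) and Azgp1 at chr5:137981271-137981570 (plus strand).
Car6: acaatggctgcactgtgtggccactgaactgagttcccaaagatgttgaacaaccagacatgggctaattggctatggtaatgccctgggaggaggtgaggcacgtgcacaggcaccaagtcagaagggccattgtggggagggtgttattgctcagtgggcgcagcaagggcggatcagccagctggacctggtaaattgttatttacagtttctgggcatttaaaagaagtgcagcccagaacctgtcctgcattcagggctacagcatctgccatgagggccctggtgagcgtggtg
Azgp1: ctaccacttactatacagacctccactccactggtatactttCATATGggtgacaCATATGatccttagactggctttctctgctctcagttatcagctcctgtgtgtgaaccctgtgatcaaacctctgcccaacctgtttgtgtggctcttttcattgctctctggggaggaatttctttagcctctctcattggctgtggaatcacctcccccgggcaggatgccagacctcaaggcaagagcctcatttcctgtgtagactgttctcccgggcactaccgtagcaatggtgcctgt
Azgp1 held 2 matches and Car6 none; of the 7 called salivary genes, Azgp1 alone had the letters, beside 3.91% of all promoters. None of the marked matches in the promoters printed here overlapped one of the other motifs searched.

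Of the genes that fell outside the salivary list, 6 are given here. Sval2, a seminal-vesicle-antigen-like secreted protein, had 6.41 FPKM in group 4, against 109 FPKM in group 3. Odam, odontogenic ameloblast-associated protein, secreted at the tooth surface and by some glands, had 2.37 FPKM in group 4, against 23.7 FPKM in group 3, and 4931407G18Rik, 1 of 3 measured genes in the 95.8 kb stretch of chromosome 5 that begins with Odam, had 0.129 FPKM in group 4, against 5.72 FPKM in group 3. A630073D07Rik had 0.402 FPKM in group 4, against 25.9 FPKM in group 3. Msln, mesothelin, a surface glycoprotein of mesothelium and some epithelia, had 2.85 FPKM in group 4, against 21.1 FPKM in group 3. Pax1, a transcription factor of the sclerotome and pharyngeal pouches, had 1.89 FPKM in group 4, against 14.1 FPKM in group 3. All 6 had their lowest level in group 4. The q-values in the authors' deposited table were 0.00450 for Sval2, 0.00666 for Odam, 5.88e-04 for 4931407G18Rik, 1.01e-04 for A630073D07Rik, 0.0343 for Msln and 0.0422 for Pax1. Values of 3 more glandular genes, named after they were seen, were 59.7 FPKM in group 4, against 368 FPKM in group 3 for Agr2, a protein disulfide isomerase of mucous cells, 15.4 FPKM in group 4, against 173 FPKM in group 3 for Dmbt1, salivary agglutinin, and 232 FPKM in group 4, against 2389 FPKM in group 3 for Expi; none passed.

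Genes of the endoplasmic reticulum stress response, which is active in secretory cells, did not pass: of 25 measured, none was called or had an unadjusted p under 0.05 in the authors' deposited table. Their median difference was -0.27, and Nupr1, a stress-induced nuclear protein also high in acinar cells, had 229.9 FPKM in group 4, against 630.0 FPKM in group 3. The share of salivary tissue in each sample is not known from the tables, and its part in the falls was not tested.

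**Figure D4:**
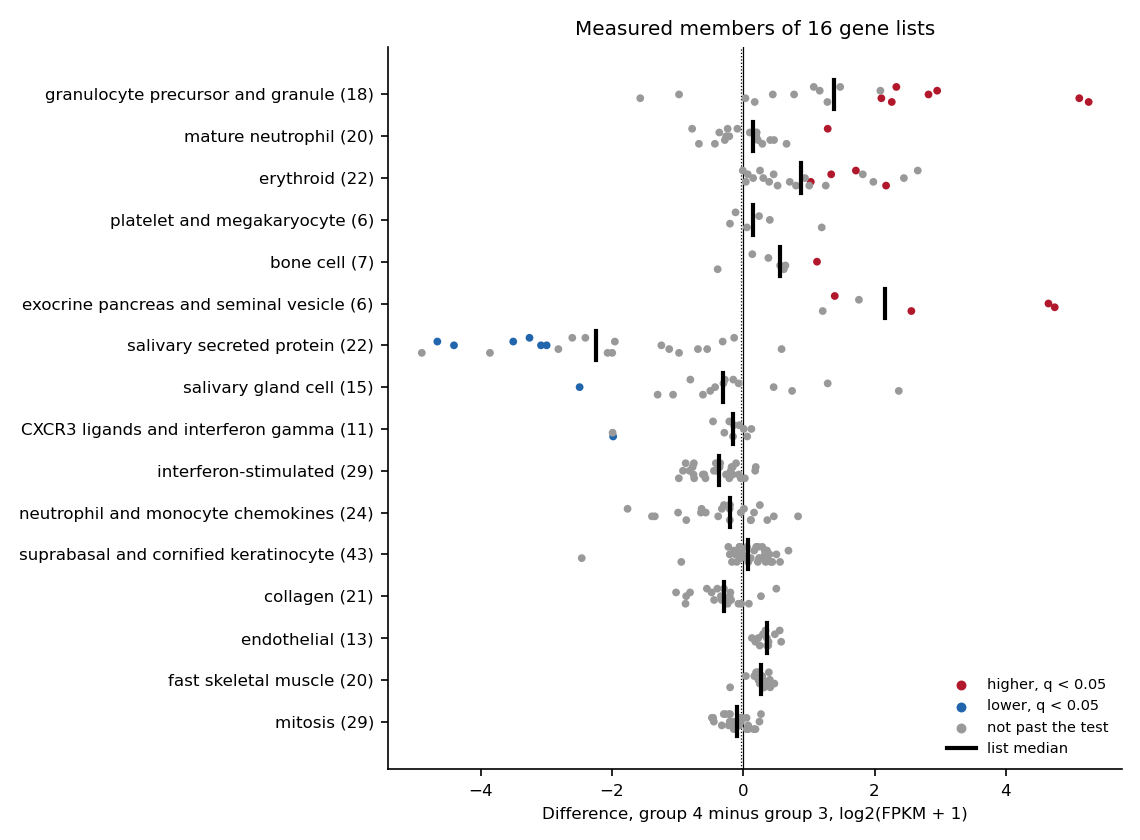
Differences between group 4 and group 3 on the log2(FPKM + 1) scale (horizontal axis, positive where group 4 is higher) for the measured members of 16 gene lists, 1 point a gene, with the number of measured members in brackets. Red and blue points passed the test, black bars mark list medians, and the dotted line marks the median of all genes, -0.04; members that met the minimum of 1 FPKM in 1 group only had their direction set by it. The granulocyte precursor, erythroid and seminal vesicle lists extend to the right, but the minimum set this for 9 of 18, 11 of 22 and 6 of 6 members. These members also enter the black bars. The salivary secreted list extends to the left, with 3 of 22 members so set. Medians of fast muscle, mitosis and suprabasal keratinocyte genes were 0.27, -0.09 and 0.08, and the lowest keratinocyte gene lay at -2.46.

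Among immune signals, Cxcl9 fell. It had 1.18 FPKM in group 4, against 7.61 FPKM in group 3, and 2.98 FPKM in group 2 and 0.328 FPKM in group 1, with a log2 ratio of -2.69 ± 0.67 and a q of 0.00415 in the authors' deposited table. Cxcl10, the related ligand of the same receptor, differed by nearly the same amount in value, 2.89 FPKM in group 4, against 14.4 FPKM in group 3, but with a p of 0.241 in the authors' deposited table. Of 11 measured genes of this list Cxcl9 alone passed (0.124% of all genes fell), and the receptor gene Cxcr3 and Cxcl11 did not reach 1 FPKM. The median difference was -0.16.

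Interferon-stimulated genes lay lower in value as a group without a call. Of 29 measured, 26 had the lower value in group 4, beside 61% of all genes, with a median of -0.37. None passed or had an unadjusted p under 0.05 in the authors' deposited table. Of the 29, 5 met the minimum of 1 FPKM in group 3 only and 1 in group 4 only, which set their direction. Over the 23 that met it in both groups, 21 had the lower value and the median was -0.36. Of all 12376 genes that met it in both groups, 7591 had the lower value. Isg15, a ubiquitin-like modifier, had 6.94 FPKM in group 4, against 14.7 FPKM in group 3, and 50.0 FPKM in group 2 and 6.50 FPKM in group 1. Ifi27l2a had 47.1 FPKM in group 4, against 83.8 FPKM in group 3. Gbp2, an interferon-inducible GTPase, had 7.49 FPKM in group 4, against 14.3 FPKM in group 3. Group 2 was above group 3 for Isg15 and Ifi27l2a, and group 3 was above group 2 for Gbp2. Genes of class I antigen presentation, 18 measured, had a median of -0.23 with no call and no gene at an unadjusted p under 0.05 in the authors' deposited table; B2m, beta-2 microglobulin, had 337 FPKM in group 4, against 409 FPKM in group 3. T cell and NK cell genes were scarce, with 5 of 24 at 1 FPKM, and Cd3g, a subunit of the T cell receptor complex, had 1.79 FPKM in group 4, against 1.89 FPKM in group 3.

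Il19, an epithelial cytokine of the IL-10 family, fell to 0.331 FPKM in group 4, against 4.72 FPKM in group 3, and was 0.0297 FPKM in group 2 and listed at 0 in group 1 (log2 ratio -3.83 ± 0.97, q = 0.00552 in the authors' deposited table). It was the only called gene among 19 measured genes of acute inflammation (0.124% of all genes fell), and the list median was 0.09. Il1b, interleukin 1 beta, had 3.97 FPKM in group 4, against 11.1 FPKM in group 3 (p = 0.0423 in the authors' deposited table), and Saa3, an acute phase serum amyloid, had 13.9 FPKM in group 4, against 48.9 FPKM in group 3 (p = 0.0158 in the authors' deposited table). Il1a, in contrast, had 7.82 FPKM in group 4, against 6.85 FPKM in group 3. No chemokine of the neutrophil and monocyte list passed. An unadjusted p under 0.05 in the authors' deposited table was reached by 4 of 24, beside 0.813% of all genes. All 4 had the lower value in group 4, but Ccl3 and Ccl4 met the minimum of 1 FPKM in group 3 only, which set their direction. Cxcl5, a neutrophil chemoattractant, had 1.06 FPKM in group 4, against 6.00 FPKM in group 3. Ccl3, macrophage inflammatory protein 1 alpha, had 0.203 FPKM in group 4, against 2.06 FPKM in group 3. Cxcl2 had 1.23 FPKM in group 4, against 4.85 FPKM in group 3, while Cxcl1 had 4.81 FPKM in group 4, against 4.36 FPKM in group 3. The macrophage list had no call and no gene at an unadjusted p under 0.05 in the authors' deposited table among 19 measured, and a median of 0.04; Cd68 had 8.91 FPKM in group 4, against 8.34 FPKM in group 3.

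In the epithelium, Krt12, the keratin of the corneal epithelium, fell to 0.320 FPKM in group 4, against 14.6 FPKM in group 3, with 0.0532 FPKM in group 2 and 0.0304 FPKM in group 1 (log2 ratio -5.52 ± 0.98, q = 3.96e-06 in the authors' deposited table). Group 3 alone had Krt12 above 1 FPKM. Other keratinocyte genes did not pass. Krt10, a keratin of differentiating epidermis, had 73.2 FPKM in group 4, against 407 FPKM in group 3, and 52.6 FPKM in group 2 and 58.8 FPKM in group 1 (p = 0.0434, q = 0.415 in the authors' deposited table), whereas Krt1, the partner keratin of Krt10, had 62.2 FPKM in group 4, against 66.7 FPKM in group 3. Of 43 suprabasal and cornified genes measured, none passed; Krt10 was the one with an unadjusted p under 0.05 in the authors' deposited table, and the median was 0.08. Of 14 basal keratinocyte genes none passed or had an unadjusted p under 0.05 in the authors' deposited table, with a median of -0.07. Hard keratins of the filiform papillae had a median of -0.18 over 17 genes with no call and no gene at an unadjusted p under 0.05 in the authors' deposited table.

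Several abundant genes could not be compared because they exceeded the authors' read limit in at least 1 of these groups and carry a 0 in its place that says nothing of their level. Such list genes were the keratins Krt4, Krt13, Krt14, Krt16, Krt6a, Krt6b, Krt84 and Krt85 and the glandular genes Bpifb1 and Lipf. Bpifb1 had 579 FPKM in group 4 and Lipf, gastric lipase, also made by lingual glands, 1134 FPKM in group 4, with group 3 over the limit for both. Per1 and Bub1 were marked as failed.

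Programmes of growth, damage and metabolism had no call between these groups. DNA replication genes had 27 of 29 lower values in group 4, beside 61% of all genes, and a median of -0.22. Of the 29, 3 met the minimum of 1 FPKM in group 3 only, which set their direction. Over the 26 that met it in both groups, 24 were lower in value, with a median of -0.22. Mcm5, a subunit of the replicative helicase, had 6.52 FPKM in group 4, against 8.88 FPKM in group 3. Mitosis genes had a median of -0.09 over 29 genes, and Top2a, topoisomerase II alpha, had 7.63 FPKM in group 4, against 9.82 FPKM in group 3. The medians of p53 targets (0.02, 25 genes), NRF2 and glutathione genes (0.08, 31 genes), alcohol, aldehyde and ketone metabolism (0.01, 28 genes) and oxidative phosphorylation (0.04, 35 genes) were all within 0.2 of 0. Nqo1, a NRF2 target, had 117 FPKM in group 4, against 86.6 FPKM in group 3. Aldh3a1, an aldehyde dehydrogenase of surface epithelia, had 867 FPKM in group 4, against 577 FPKM in group 3. In none of these 6 lists did a gene reach an unadjusted p under 0.05 in the authors' deposited table.

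Muscle, vessel and matrix genes showed small shifts in value. Among all genes compared, 39% had the higher value in group 4 and 61% the lower. Fast muscle genes had the higher value in group 4 in 19 of 20 and a median of 0.27. Endothelial genes had it in 13 of 13, with a median of 0.36; Pecam1, an adhesion molecule of endothelium, had 16.4 FPKM in group 4, against 12.6 FPKM in group 3. No endothelial gene had an unadjusted p under 0.05 in the authors' deposited table. Collagen genes went the other way, with 18 of 21 lower in value and a median of -0.29. Of the 21, 1 met the minimum of 1 FPKM in group 3 only and 1 in group 4 only. Over the 19 that met it in both groups, 17 were lower in value. Col1a1 had 6.52 FPKM in group 4, against 12.8 FPKM in group 3, and Col3a1, the fibrillar collagen of type III, had 10.7 FPKM in group 4, against 20.4 FPKM in group 3. No collagen gene passed, and 1, Col12a1, had an unadjusted p under 0.05 in the authors' deposited table. Cytosolic ribosomal protein genes had the lower value in group 4 in all 26, by a median of -0.12, and none passed or had an unadjusted p under 0.05 in the authors' deposited table.

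The chitinase family was split. Chia fell, the only call among 6 measured members (0.124% of all genes fell). Chit1, chitotriosidase, had 135 FPKM in group 4, against 141 FPKM in group 3. Chi3l1 had 95.0 FPKM in group 4, against 44.6 FPKM in group 3. Chi3l4, a close copy of Chi3l3, had 37.1 FPKM in group 4, against 104 FPKM in group 3, the direction opposite to Chi3l3. The division of reads between these copies is uncertain. Of the 59 lists examined, 11 held a called gene and 48 held none. The medians of those 48 ran from -0.44, for plasma cell and B cell genes, to 0.36, for endothelial genes.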

How the data were processed

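RNA from mouse tongue was prepared with poly-T selection and TruSeq libraries, per the labels' protocols. The series design text names HiSeq2000 reads, mm9 and Cufflinks for FPKM levels, and the submitters' processing notes add GSNAP 2011.11.17 and edgeR without giving a role; no count table was used here. FPKM values, test scores, p-values and q-values are the authors' deposited ones, read from the tables' columns. The q-values matched Benjamini-Hochberg values taken jointly over 92458 tests, all 6 tables together (largest difference 3.40e-06), and the deposited test score has the sign opposite to the ratio of group 4 to group 3.

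A gene was called at a deposited q under 0.05 with 1 FPKM in either group. Differences are log2(FPKM + 1), which understates changes of low genes; log2 ratios use no pseudocount, and their SE is the ratio divided by the authors' score. Python 3.11.15, numpy 2.4.6, pandas 2.3.3 and scipy 1.17.1 were used, and the functions were checked on simulated data. The tests fit the whole table; no test per sample could be added.

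The members and the 59 gene lists were chosen with earlier results of these data known. Of 1319 list entries, 1306 matched a row by symbol or RefSeq synonym. Named genes are the 15 largest rises and falls, called list members, each list's first gene and up to 5 further members by size, genes over the read limit or failed, neighbouring calls, and Camp, Slc4a1, Car6 and Cxcl9; others are marked in the text. Not every gene the rule names is printed, and the levels of 2 list members are not reported here. The file starts count from 0 and were raised by 1: 9436 starts then equalled the NCBIM37 (mm9) annotation, against 582 as written. Promoters were found, by symbol or synonym and on the same chromosome, for 32 of the 38 called genes; the letters TTCNNNGAA (a GAS site, a palindrome) were also searched, in 8.30% of all promoters and not in that of Cxcl9. Alternatives were q under 0.01, a 2-fold minimum, no FPKM filter or 5 FPKM, Benjamini-Hochberg or Bonferroni within the comparison, centring on the median log2 ratio and a variance shared by the groups (each with p-values adjusted within the comparison and, added after seeing the data, over all 6 tables), and pseudocounts of 0.1 and 0.01.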

Additional observations from a re-analysis of the deposited data

How the results depend on the processing

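The counts of 22 higher and 16 lower genes stayed within 1.5 times under q under 0.01 (18 and 11) and a 2-fold minimum (22 and 16). Without the FPKM filter there were 29 higher and 16 lower, and with a 5 FPKM minimum 9 higher and 15 lower, since that minimum removes low genes and most rises were of low genes; 37.5% of calls were then higher, against 57.9% at 1 FPKM. Benjamini-Hochberg within the comparison gave 17 and 10, and Bonferroni 11 and 4. Centring on the median log2 ratio of -0.05 with that same within-comparison adjustment gave 18 and 9; with the adjustment kept over all 6 tables, an alternative added after seeing the data, it gave 23 and 16, with all 22 and 16 calls among them. A variance shared by the groups gave 16 and 17 within the comparison (14 and 15 of them calls of the authors' test), and, added after seeing the data, 22 and 31 over all 6 tables (18 and 15 of them such calls), when 41.5% of calls were higher. Over all these alternatives the granulocyte list had between 3 and 8 higher members, the seminal vesicle list between 3 and 4, the erythroid list between 0 (at 5 FPKM) and 8 (no filter), and the salivary list between 2 and 9 lower members. The thresholds, adjustments, shared variance and pseudocounts of 0.1 and 0.01 cannot change the sign of a difference, so the kept signs of the 38 calls are no support. Centring could change a sign, but the smallest called difference was 1.03 in size, against a shift of 0.05. On centring, 6 list medians, each within 0.05 of 0, changed sign. The shared variance could not be had for 5 called genes. No paired analysis was possible because the tables hold 1 value per group, and no replicate could be left out for the same reason. Errors limit what can be called: no log2 ratio under 1.86 passed the authors' test.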
